A study of Mus musculus with 23 samples.

Results

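Schlafen (Slfn) genes are a family of related genes that sit together on mouse chromosome 11, and 7 of them (Slfn1, Slfn2, Slfn3, Slfn4, Slfn5, Slfn8 and Slfn9) were followed here among the 19215 genes with a value in the small intestine. The family was chosen by measured values, since Slfn4 was among the genes with the highest increase after fecal microbiota transplantation (FMT), and the differences between FMT and saline are therefore given as a description, with counts of calls set beside those of all genes and nothing read from them. For Slfn4 itself this holds for every difference, since the FMT libraries that chose it enter all of them. RNA-seq was performed on small intestine of ICR mice in 23 libraries. Every group had received busulfan, an alkylating chemotherapy drug that injures the intestinal lining, and no group without busulfan was among them. By the study's methods, male mice were given busulfan once, at 40 mg/kg and 3 weeks of age, were gavaged daily for 1 week, and gave their tissue at 5 weeks of age. The gavage was saline in the Sa group and gut contents of donor mice in the FMT groups. The donors had been dosed for 3 weeks with vehicle (Con-FMT), with alginate oligosaccharides (AOS) at 10 mg/kg (A10-FMT) or with AOS at 100 mg/kg (A100-FMT), and the contents of all donors of a group were pooled. Each treatment was present in 2 sets of libraries, called set 1 and set 2 here, and what the set code stands for, or whether both sets followed that schedule, is not given in the sources used here. There were 3 libraries per group, except for Sa in set 1 with 2. The labels do not say whether libraries of a group came from separate mice, so that p-values measure the spread between these libraries, which may be technical.

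Schlafen proteins share a domain that resembles an ATPase, and they fall into short, intermediate and long forms, of which the long ones carry a helicase-like part. Many are induced by type I interferon, the antiviral signal that cells make on sensing microbes, and several restrain the growth of lymphocytes or the replication of viruses. Slfn1 and Slfn2 are short forms, and Slfn2 keeps T cells and monocytes in a resting state. Slfn3 and Slfn4 are intermediate forms, with Slfn4 known from interferon-treated macrophages and other myeloid cells, and Slfn3 from the differentiation of intestinal epithelium. Slfn5, Slfn8 and Slfn9 are long forms.

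The 7 genes lay within 263.8 kb of chromosome 11 (GRCm38, the assembly of the mm10 build that the submitters' processing notes name). Slfn5 (chr11:82951349-82964840, plus strand), Slfn2 (chr11:83065112-83070678, plus), Slfn1 (chr11:83116849-83122670, plus), Slfn4 (chr11:83175186-83190216, plus) and Slfn3 (chr11:83191330-83215154, plus) were on 1 strand. Slfn9 (chr11:82978390-82991830) and Slfn8 (chr11:83002158-83020810) were on the minus strand, next to the pseudogene Slfn10-ps. The 250 bases before the start site of the 4 members with the highest levels, and of Slfn8, are printed from RefSeq (GRCm38.p6). The RefSeq start of Slfn5 lies inside the span given above, which is that of GENCODE. They are shown because they show which promoters resemble each other and which hold an interferon response type of motif. All 7 members were matched in the promoter table. Capitals mark GAAANNGAAA, the shorter AAANNGAAA that every match of the former contains, and ACTTCCTGG, each on either strand, with N for any base.
Slfn4, chr11:83174936-83175185, plus strand: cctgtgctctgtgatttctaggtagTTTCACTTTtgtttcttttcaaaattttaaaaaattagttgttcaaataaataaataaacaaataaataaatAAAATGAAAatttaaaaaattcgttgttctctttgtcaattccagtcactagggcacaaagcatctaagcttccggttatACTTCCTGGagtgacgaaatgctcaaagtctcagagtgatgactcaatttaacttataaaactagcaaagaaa
Slfn2, chr11:83064862-83065111, plus strand: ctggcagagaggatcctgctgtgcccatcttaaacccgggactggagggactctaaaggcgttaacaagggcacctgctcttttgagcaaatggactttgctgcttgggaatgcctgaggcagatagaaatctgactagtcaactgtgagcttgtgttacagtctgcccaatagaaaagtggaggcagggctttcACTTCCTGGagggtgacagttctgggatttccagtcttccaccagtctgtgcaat
Slfn5, chr11:82951852-82952101, plus strand: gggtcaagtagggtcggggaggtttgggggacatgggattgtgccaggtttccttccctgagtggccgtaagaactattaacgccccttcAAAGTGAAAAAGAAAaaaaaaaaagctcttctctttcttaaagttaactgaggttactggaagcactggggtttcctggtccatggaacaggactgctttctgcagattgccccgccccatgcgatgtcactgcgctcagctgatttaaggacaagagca
Slfn9, chr11:82991831-82992080, minus strand: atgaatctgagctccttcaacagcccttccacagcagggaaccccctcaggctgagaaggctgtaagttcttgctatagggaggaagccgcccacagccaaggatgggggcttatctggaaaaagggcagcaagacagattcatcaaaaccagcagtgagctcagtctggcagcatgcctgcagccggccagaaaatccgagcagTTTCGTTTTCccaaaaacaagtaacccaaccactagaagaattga
Slfn8, chr11:83020811-83021060, minus strand: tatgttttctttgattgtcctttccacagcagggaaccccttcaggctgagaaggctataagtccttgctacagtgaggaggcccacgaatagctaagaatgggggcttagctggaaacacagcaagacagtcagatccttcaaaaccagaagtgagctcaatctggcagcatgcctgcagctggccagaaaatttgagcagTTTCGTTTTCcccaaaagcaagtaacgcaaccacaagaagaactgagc

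The promoters of Slfn8 and Slfn9 were 80.7% identical over the whole promoter window of 300 bases in that table, which runs past the start site, with a longest common run of 20 bases, while the other 20 pairs of members were between 42.3% and 50.3% identical. GAAANNGAAA was present in the windows of 3 members (Slfn5, Slfn8 and Slfn9), against 3.99% of 27025 genes. The shorter AAANNGAAA was present in 5 members, adding Slfn1 and Slfn4, against 12.1% of genes. ACTTCCTGG, which was searched for only after the sequences had been read, was present in the other 4 members, starting 73 bases before the start site in Slfn4, 55 in Slfn2, 74 in Slfn1 and 42 in Slfn3, against 1.0% of genes. TTCNNNGAA, the core of the gamma interferon type of element, was in no member's window and in 9.55% of genes. These are matches of letters in a window and not sites of binding.

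Related transcripts can share reads, and how the counting treated them is not given. Of all 50-base stretches of the annotated transcripts, 10.8% of those of Slfn4 also occurred in another gene, mostly in Slfn3, and 11.5% of those of Slfn9, mostly in Slfn10-ps and Slfn8. For Slfn2 the share was 4.27%, all of it with Slfn4, and for Slfn5 it was 3.37%. It was 14.6% for Slfn8 and 15.6% for Slfn3. Antisense genes overlap Slfn5 and Slfn2 in the annotation, and use of strand in the counting is not stated, so that reads of these partners cannot be told apart. The values of Slfn3, Slfn8 and Slfn9 are the least certain in this respect.

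The libraries were otherwise much alike, with 1 exception that bears on the results. The depth of the libraries is unknown, since the values are FPKM, fragments scaled by transcript length and by the total of the library, with 2 decimals. Across all genes, the Sa library of set 1 with replicate number 3 correlated with the others at 0.944 to 0.965, while the median correlation of each other library was 0.979 or higher. Its title and its description name different columns of the table. The column that its title names serves here, with the other one as an alternative. The other one carries replicate number 2 of Sa in set 1, which no title names, so it may be a further library. That other column holds 2.70 FPKM for Slfn4, 30.1 for Slfn2, 8.53 for Slfn5 and 21.1 for Slfn9. The column used holds 0.50, 29.1, 5.25 and 6.84 FPKM in the same order. Every difference from Sa in set 1 rests on this library and on 1 other, and is given below with and without it. Tissue identity followed the labels, since the sum of 18 markers of small intestinal epithelium lay between 15190 and 21735 FPKM, led by Lyz1 of Paneth cells and the keratins Krt8 and Krt19. The sum of 7 smooth muscle markers was at most 2.10 FPKM, with Acta2 at 0.09 FPKM or less. Macrophage markers were near 0 as well, with Adgre1 at 0.05 FPKM or less and Csf1r at 0.13 FPKM or less, whereas Cd14 lay between 44.8 and 72.7 FPKM. With smooth muscle markers near 0, these libraries do not stand for the whole wall of the intestine. In RNA from mixed cells, fewer cells of a type and less RNA per cell cannot be told apart.

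Slfn2 was the most abundant member and made up the median library's 49.6% of the summed FPKM of the family (range, 43.2% to 69.1%). It was followed, on this length-scaled measure, by Slfn9 at a median of 21.4%, Slfn5 at 17.4% and Slfn4 at 9.96%. The sum over the family lay between 42.1 FPKM, in the Sa library of set 1 that stood apart, and 125 FPKM in an A10-FMT library of set 1. Slfn8 (mean 0.998 FPKM), Slfn1 (0.238 FPKM) and Slfn3 (0.02 FPKM) fell below the mean of 1 FPKM that was asked of tested genes, so that 4 of the 7 members were among the 11337 genes tested. Slfn8 missed this limit by the third decimal.

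**Figure D1:**
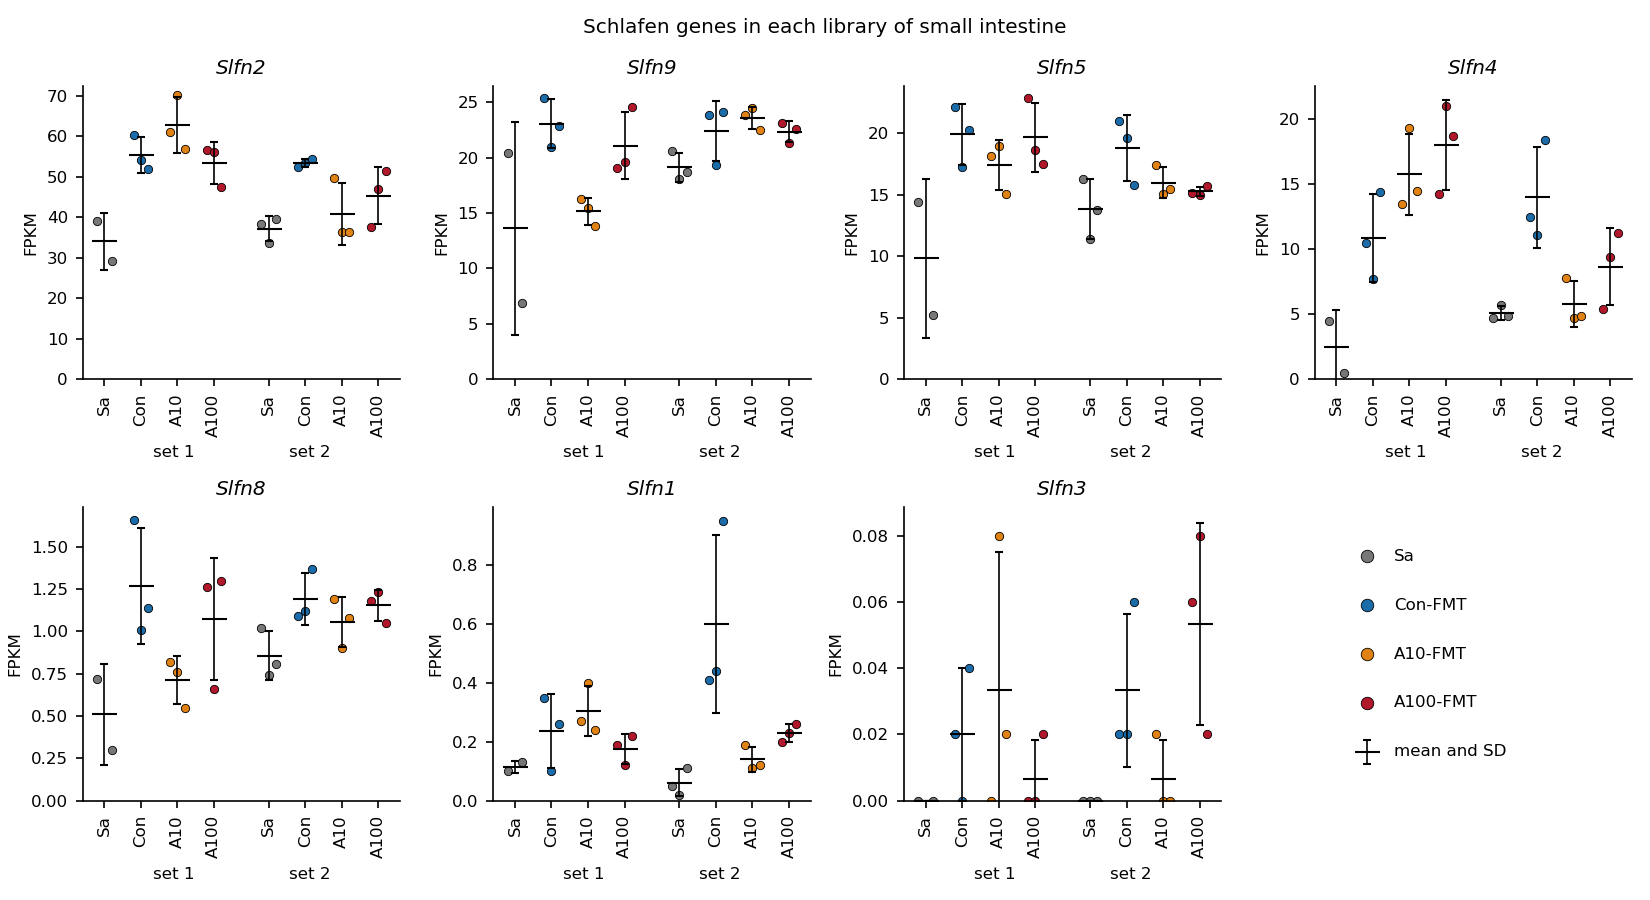
FPKM of the 7 Schlafen genes in the 23 libraries (1 point per library), with the mean and SD of each group as a horizontal mark and bar, and with a y axis of its own for each gene. Slfn4 was at 0.50 and 4.45 FPKM in the Sa libraries of set 1 and at 7.69 FPKM or more in the FMT libraries of that set, and in set 2 all Con-FMT libraries were above all Sa and A10-FMT libraries.

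Slfn4 varied the most of the 4 tested members, 42.0-fold between its lowest and highest library and 4.72-fold without the Sa library that stood apart. In set 1, Slfn4 stood at 4.45 and 0.50 FPKM in the Sa libraries, at 10.45, 7.69 and 14.35 FPKM in Con-FMT, at 13.4, 19.3 and 14.5 FPKM in A10-FMT and at 14.2, 21 and 18.7 FPKM in A100-FMT. All 9 FMT libraries of set 1 were above both Sa libraries. In set 2, Slfn4 stood at 4.71, 5.68 and 4.83 FPKM in Sa, at 12.5, 11.1 and 18.4 FPKM in Con-FMT, at 7.77, 4.66 and 4.82 FPKM in A10-FMT and at 5.36, 9.39 and 11.2 FPKM in A100-FMT. Here Con-FMT was above Sa in every library, while A10-FMT and A100-FMT each overlapped Sa. Ordered by mean, Slfn4 was highest in A100-FMT of set 1 (17.9 ± 3.47 FPKM, SD, n = 3), followed by A10-FMT of set 1 (15.7 ± 3.14), Con-FMT of set 2 (14.0 ± 3.88), Con-FMT of set 1 (10.8 ± 3.35), A100-FMT of set 2 (8.64 ± 2.98), A10-FMT of set 2 (5.75 ± 1.75), Sa of set 2 (5.07 ± 0.529) and Sa of set 1 (2.48 ± 2.79, n = 2). Neighbours in this order overlapped, apart from the last pair.

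Slfn2, the resting-state factor, covered a narrower range of 29.1 to 70.2 FPKM. In set 1, Slfn2 stood at 39.0 and 29.1 FPKM in Sa, at 60.4, 54.0 and 51.9 FPKM in Con-FMT, at 61.2, 70.2 and 56.9 FPKM in A10-FMT and at 56.6, 56.1 and 47.5 FPKM in A100-FMT. In set 2, it stood at 38.4, 33.6 and 39.5 FPKM in Sa, at 52.4, 53.3 and 54.4 FPKM in Con-FMT, at 49.7, 36.4 and 36.4 FPKM in A10-FMT and at 37.6, 47.0 and 51.3 FPKM in A100-FMT. As with Slfn4, Con-FMT was above Sa without overlap in both sets, and the groups of AOS donors were so in set 1 but overlapped Sa in set 2. The highest mean was that of A10-FMT in set 1 (62.8 ± 6.84 FPKM, SD, n = 3) and the lowest that of Sa in set 1 (34.0 ± 6.99, n = 2), and 6 of the 7 pairs of neighbours in the order overlapped.

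Slfn9 and Slfn5, both long forms, followed other patterns. In set 1, Slfn9 stood at 20.5 and 6.84 FPKM in Sa, at 25.4, 20.97 and 22.9 FPKM in Con-FMT, at 16.2, 15.5 and 13.8 FPKM in A10-FMT and at 19.1, 19.6 and 24.6 FPKM in A100-FMT. In set 2, it stood at 20.6, 18.1 and 18.7 FPKM in Sa, at 23.8, 19.3 and 24.1 FPKM in Con-FMT, at 23.8, 24.5 and 22.5 FPKM in A10-FMT and at 23.2, 21.4 and 22.6 FPKM in A100-FMT. The 3 A10-FMT libraries of set 1 were thus below every other library but the Sa library that stood apart. Slfn5 lay between 14.97 and 22.9 FPKM in the 18 FMT libraries and between 11.4 and 16.3 FPKM in 4 of the 5 Sa libraries, with 5.25 FPKM in the fifth. Its group means ran from 19.9 ± 2.46 FPKM in Con-FMT of set 1 (SD, n = 3) to 9.82 ± 6.46 in Sa of set 1 (n = 2), and all neighbours in the order overlapped.

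The members below the limit are given by their levels. Slfn8 lay between 0.30 and 1.66 FPKM and, like Slfn9, was lower in A10-FMT of set 1 (0.55 to 0.82 FPKM) than in Con-FMT of that set (1.01 to 1.66 FPKM), without overlap. Slfn1, known as a brake on T cell growth, was at 0.41, 0.44 and 0.95 FPKM in Con-FMT of set 2 and at 0.40 FPKM or less in every other library. Slfn3 was listed at 0 in 11 of 23 libraries, among them all 5 Sa libraries, and its other values were 0.02, 0.04, 0.06 and 0.08 FPKM, which are the smallest steps the table shows for this gene. In set 2, Slfn3 was above 0 in all Con-FMT libraries (0.02 to 0.06 FPKM) and all A100-FMT libraries (0.02 to 0.08 FPKM), which no Sa library was, though by a few of these steps. Among other genes of the name, Slfn14 was at 0.03 FPKM or less and Slfnl1 at 0.06 FPKM or less.

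The first comparison asked how the FMT groups differed from Sa, and since Slfn4 was picked on it, what follows is a description. In set 1, the difference of Slfn4 from Sa on the log2(FPKM + 1) scale was 2.01 ± 0.40 (SE) for Con-FMT, 2.53 ± 0.40 for A10-FMT and 2.71 ± 0.40 for A100-FMT. It ranked 14th, 9th and 7th from the highest among the 11337 genes. Without the Sa library that stood apart, the difference was 1.08 for Con-FMT, 1.60 for A10-FMT and 1.78 for A100-FMT, each ± 0.36, with ranks of 54, 40 and 24 among 11354 genes. Slfn2 differed from Sa by 0.70 ± 0.15, 0.87 ± 0.15 and 0.64 ± 0.15 in the same order, and by 0.49, 0.67 and 0.44 without that library. For Slfn5 the values were 1.09 ± 0.25, 0.90 ± 0.25 and 1.07 ± 0.25, falling to 0.44, 0.25 and 0.42 without it. Slfn9 differed by 0.89 ± 0.25, 0.31 ± 0.25 and 0.76 ± 0.25, and by 0.16, -0.41 and 0.03 without it, so that the direction in A10-FMT rested on this 1 library. The scale adds 1 to each value and so understates changes of low genes.

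The tested members were counted beside all genes with limma, a linear model with a shared estimate of the spread, at an adjusted p (Benjamini-Hochberg over all tested genes) under 0.05. In set 1, 4 of 4 tested members passed for Con-FMT, where 26.9% of all genes did, 3 of 4 for A10-FMT (32.0% of genes) and 4 of 4 for A100-FMT (35.2% of genes). Without the Sa library that stood apart, 2 calls were left of these 11, those of Slfn2 and Slfn4 in A10-FMT, beside 0.00881%, 8.12% and 0.238% of all genes for the 3 groups in the same order. In set 1, all FMT libraries were above all Sa libraries for 4 members with Con-FMT (18.8% of genes), 3 members with A10-FMT (13.9%) and 3 members with A100-FMT (22.0%). As the contrast chose the family, nothing is read from these counts.

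In set 2, Slfn4 differed from Sa by 1.27 ± 0.36 for Con-FMT, by 0.13 ± 0.36 for A10-FMT and by 0.62 ± 0.36 for A100-FMT on the same scale, and it ranked 24th, 2539th and 103rd from the highest. Slfn2 differed by 0.51 ± 0.13, 0.12 ± 0.13 and 0.27 ± 0.13, Slfn5 by 0.42 ± 0.22, 0.21 ± 0.22 and 0.15 ± 0.22, and Slfn9 by 0.21 ± 0.22, 0.29 ± 0.22 and 0.22 ± 0.22. All 12 differences were above 0. In set 2, none of the 4 members passed for Con-FMT (0.0353% of genes passed), A10-FMT (0.423%) or A100-FMT (0.0353%). As in set 1, nothing is read from these counts. All libraries of the FMT group were above all of Sa for Slfn2 and Slfn4 with Con-FMT (6.30% of genes), for Slfn9 with A10-FMT (19.2%) and again for Slfn9 with A100-FMT (18.4%).

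**Figure D2:**
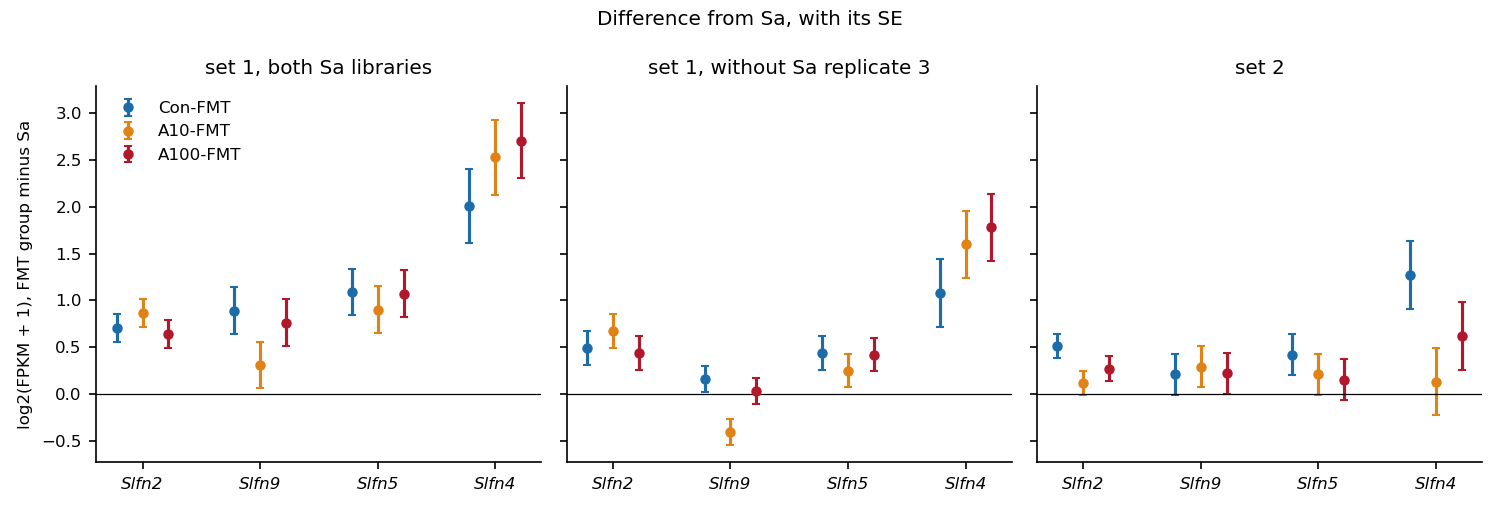
Difference of each FMT group from Sa in log2(FPKM + 1), with its SE, for the 4 tested members, in set 1 with both Sa libraries, in set 1 without the Sa library of replicate number 3, and in set 2. Slfn4 lay at 2.01 to 2.71 in set 1, at 1.08 to 1.78 without that library and at 0.13 to 1.27 in set 2.

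The second comparison asked whether gut contents of AOS-dosed donors gave other levels than those of vehicle donors. No Sa library enters these differences, though the contrasts share FMT libraries. For comparisons between FMT groups or between sets, the share of all genes without overlap was not counted. Overlap is given there as a description of levels only. Slfn4, as a description, differed from Con-FMT by 0.52 ± 0.36 in A10-FMT and by 0.70 ± 0.36 in A100-FMT in set 1. In set 2, the differences had the other sign, with -1.15 ± 0.36 for A10-FMT, where the 2 groups did not overlap, and -0.65 ± 0.36 for A100-FMT. In set 1, Slfn2 differed from Con-FMT by 0.17 ± 0.13 with A10-FMT and by -0.06 ± 0.13 with A100-FMT. The values of set 2 were -0.39 ± 0.13 and -0.24 ± 0.13, and the 4 adjusted p were 0.399, 0.942, 0.224 and 0.519 (limma). In set 2, every A10-FMT and every A100-FMT library of Slfn2 was below every Con-FMT library.

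Slfn9 was lower in A10-FMT than in Con-FMT of set 1 by 0.57 ± 0.22 (adjusted p = 0.0827, limma), with no overlap, and in set 2 the difference was 0.08 ± 0.22 (adjusted p = 0.925). The 2 Sa libraries of set 1, at 20.5 and 6.84 FPKM, widened the error of this gene, since leaving out either of them gave an adjusted p of 0.000702 or 0.000707 for the same difference. In the same way, the difference of A100-FMT from A10-FMT in set 1 (0.45 for Slfn9) had an adjusted p of 0.00721 or 0.00726 without either of them, against 0.235 with all libraries. Slfn5 differed between FMT groups by 0.27 or less in either direction, with adjusted p of 0.604 or higher. With all libraries, 0 of the 3 members tested (Slfn2, Slfn5 and Slfn9) passed in any of the 6 contrasts between FMT groups. Of all genes, 16.7% passed for A10-FMT vs. Con-FMT, 0.406% for A100-FMT vs. Con-FMT and 5.66% for A100-FMT vs. A10-FMT in set 1, and 0.379%, 0% and 0.00882% did so in set 2. An unadjusted p under 0.05 was found for Slfn9 in A10-FMT vs. Con-FMT of set 1 and for Slfn2 in that of set 2, and for none of the 3 in the other 4 contrasts. Of all 11337 genes, 3605 had such a p in the former, 1348 in the latter and 808 to 2624 in the other 4.

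**Figure D3:**
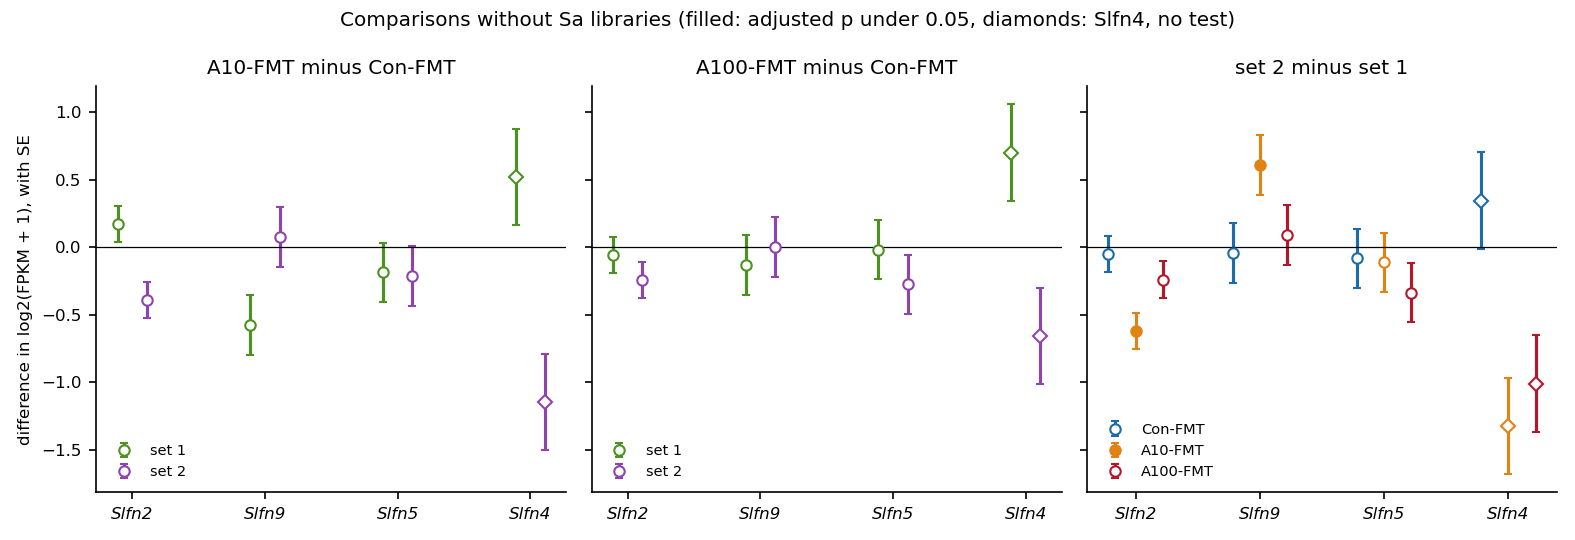
Differences in log2(FPKM + 1) with their SE that use no Sa library, for 4 members: A10-FMT minus Con-FMT and A100-FMT minus Con-FMT in each set, and set 2 minus set 1 within each FMT group. Filled points had an adjusted p under 0.05, namely Slfn2 (-0.62) and Slfn9 (0.61) between the sets of A10-FMT, and open diamonds are Slfn4, given without a test.

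The third comparison set the 2 sets against each other within a treatment. In A10-FMT, Slfn2 fell by 0.62 ± 0.13 from set 1 to set 2 (adjusted p = 0.00256, limma), with no overlap between sets. The difference of Slfn4 was -1.32 ± 0.36, also with no overlap, and has no test here because high FMT libraries helped to choose the gene, which builds in part of a lower level elsewhere. Slfn2 followed Slfn4 over the libraries (Pearson correlation of 0.868 after subtracting set means). Its p, here and in the interaction, may therefore carry part of that choice. Between the sets of A10-FMT, Slfn9 rose by 0.61 ± 0.22 (adjusted p = 0.0449, limma), again with no overlap, and Slfn5 differed by -0.11 ± 0.22 (adjusted p = 0.72). These 2 of 3 tested members stood beside 30.4% of all genes that passed in A10-FMT, 2473 upwards and 977 downwards, with the median of all genes at 0.12. Relative to that median, the loss of Slfn2 is larger and the gain of Slfn9 smaller than the value given. Slfn2 passed in all 32 alternative settings (log2 change of -0.76 to -0.53), and the difference of Slfn4 ranged from -1.53 to -1.17 in them. The call of Slfn9 did not last, with 9 of 32 settings, since it was lost on leaving out any of 19 of the 23 libraries (adjusted p of 0.051 to 0.134). The 4 others were both Sa libraries of set 1, A100-FMT replicate 3 of set 1 and Con-FMT replicate 2 of set 2. Scaling the libraries to a common trimmed mean ended it as well (0.50, adjusted p = 0.101).

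Between the sets of Con-FMT, no member passed, with Slfn4 at 0.35 ± 0.36 and the other 3 between -0.08 and -0.04, and 0.00882% of all genes passed. No member had an unadjusted p under 0.05 there, beside 674 of all 11337 genes. In A100-FMT, Slfn4 was lower in set 2 by 1.01 ± 0.36 without overlap, and none of the 3 tested members passed (limma), as did 0% of all genes. None of the 3 had an unadjusted p under 0.05 in A100-FMT, beside 1641 of all genes. In Sa, which is part of the contrast that chose the gene, Slfn4 was at 4.71 to 5.68 FPKM in set 2 against 0.50 and 4.45 FPKM in set 1.

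Whether the response to the donors' dose itself differed between sets was tested as an interaction. For A10-FMT vs. Con-FMT, the difference of Slfn2 changed by -0.57 ± 0.19 from set 1 to set 2 (adjusted p = 0.0422, limma), and that of Slfn4, as a description, by -1.67 ± 0.50. For Slfn5 the change was -0.03 ± 0.31 (adjusted p = 0.957) and for Slfn9 0.65 ± 0.31 (adjusted p = 0.148), the latter with an adjusted p of 0.0022 on leaving out either Sa library of set 1. The call of Slfn2 was downwards, and 20.8% of all genes passed in this interaction, 760 of them downwards. It was lost on leaving out any of 9 libraries (adjusted p of 0.0564 to 0.11), namely Con-FMT replicates 2 and 3 and A10-FMT replicates 1 and 2 of set 1, and Con-FMT replicates 1, 2 and 3 and A10-FMT replicates 2 and 3 of set 2. Over the 32 alternative settings the call of Slfn2 held in 21, and with no filter it was lost (adjusted p = 0.0698, limma). The size of the change stayed between -0.71 and -0.48 for Slfn2 and between -1.88 and -1.47 for Slfn4 in all 32. For A100-FMT vs. Con-FMT, the value of Slfn4 was -1.36 ± 0.50, no tested member passed and 0% of all genes did. For A100-FMT vs. A10-FMT, no member passed, beside 3.50% of all genes, with Slfn9 at -0.52 ± 0.31 (adjusted p = 0.389, and 0.024 on leaving out either Sa library of set 1). None of the 3 tested members had an unadjusted p under 0.05 in these last 2 interactions (limma), beside 1483 and 2126 of all genes.

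**Figure D4:**
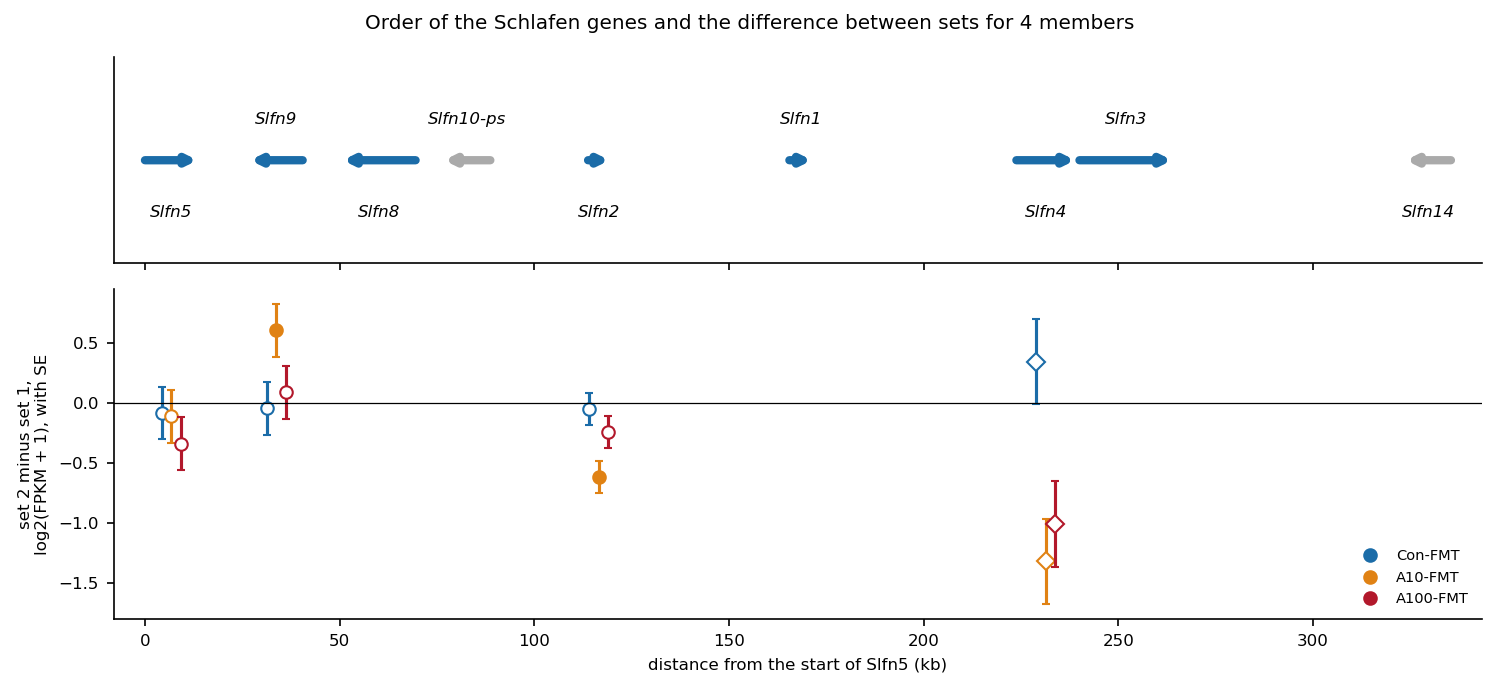
Order and direction of the Schlafen genes along chromosome 11, as distance in kb from the start of Slfn5 (top; Slfn10-ps and Slfn14 in grey were not followed), and the difference of set 2 from set 1 in log2(FPKM + 1) with its SE for 4 members at their place in the cluster (bottom; filled points had an adjusted p under 0.05, and diamonds are Slfn4, given without a test). In A10-FMT, from left to right, Slfn5 stood at -0.11, Slfn9 at 0.61, Slfn2 at -0.62 and Slfn4 at -1.32.

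The genes whose levels were most like those of Slfn4 were interferon-induced ones. Over the 23 libraries, after the mean of each set had been subtracted, the highest Pearson correlations with Slfn4 outside the family were those of Rsad2 (viperin, an antiviral enzyme) at 0.956, Oasl2 (an oligoadenylate synthetase-like sensor) at 0.929, Ifit1 (a binder of viral RNA) at 0.917, Cmpk2 (a mitochondrial nucleotide kinase) at 0.907 and Nmi (a partner of STAT factors) at 0.903. Without the Sa library that stood apart, the same correlations were 0.909, 0.846, 0.826, 0.79 and 0.779. Within the family, Slfn2 correlated with Slfn4 at 0.868 (0.784 without that library), Slfn5 at 0.794 (0.494) and Slfn9 at 0.598 (0.057), so that the likeness of Slfn9 rested on it. Slfn8 and Slfn9, the pair with related promoters and shared transcript stretches, correlated at 0.809 and at 0.742 without it. These points share libraries and scaling and are a description.

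**Figure D5:**
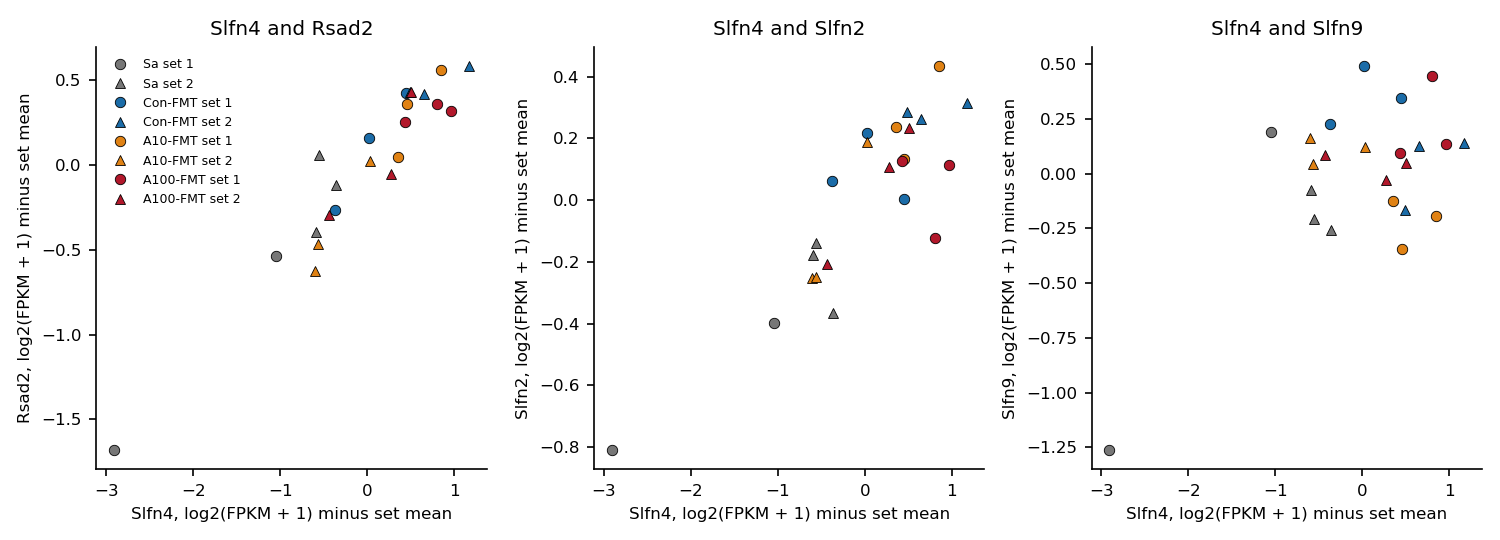
Level of Rsad2, Slfn2 and Slfn9 against that of Slfn4, in log2(FPKM + 1) minus the mean of the set, with 1 point for each of 23 libraries (circles for set 1, triangles for set 2). Rsad2 and Slfn2 rose along with Slfn4 over the libraries, while Slfn9 did so by the 1 Sa library at the lower left (r of 0.598 with it and 0.057 without it).

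The rest of the interferon programme was followed through 2 lists. Of all 11337 genes, 2011, 1541 and 2499 passed upwards in Con-FMT, A10-FMT and A100-FMT against Sa in set 1. Of 51 interferon-induced genes outside the family, 46 were tested, and 35, 31 and 32 of them passed upwards in these contrasts. Their medians were 0.72, 0.66 and 0.65, where the median of all genes was 0.05, -0.01 and 0.05. Without the Sa library that stood apart, 0, 10 and 1 of them passed upwards, and the medians were 0.29, 0.27 and 0.28. In set 2 the counts were 1, 0 and 0 (4, 10 and 2 of all genes), and the medians 0.36, 0.07 and 0.18. Between the sets of A10-FMT, 13 of the 46 passed downwards and 0 upwards, with a median of -0.28. Of all 11337 genes, 977 passed downwards and 2473 upwards there, 30.4% in total. Between the sets of Con-FMT none of 46 passed (0.00882% of all genes), and the median was 0.00. In A100-FMT, none of 46 passed either, but the median was -0.28, with 4 of 46 genes higher in set 2. In the interaction with Con-FMT, 760 of all genes passed downwards and 1594 upwards for A10-FMT, and 0% passed for A100-FMT. Of the 46, 9 passed downwards and 0 upwards for A10-FMT, with a median of -0.24. For A100-FMT, 0 of the 46 passed, with a median of -0.28. The 3 most abundant genes of the list followed this, with Ifit1bl1 falling by 0.96 ± 0.23 (adjusted p = 0.00531, limma), Isg15, a ubiquitin-like modifier, by 0.73 ± 0.16 (adjusted p = 0.00234) and Oasl2 by 0.43 ± 0.11 (adjusted p = 0.00661) from set 1 to set 2 of A10-FMT. Oasl2 correlated with Slfn4 at 0.929, so that its p may carry part of the choice of Slfn4. Of 26 receptor and signalling genes, 21 were tested, and 4 passed downwards and 1 upwards between the sets of A10-FMT (30.4% of all genes passed). Among them, Irf7, the factor that amplifies type I interferon, fell by 0.49 ± 0.11 (adjusted p = 0.00272, limma), whereas Irf1 (0.01 ± 0.07, adjusted p = 0.935) and Irf8 (-0.03 ± 0.09, adjusted p = 0.838) did not pass.

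Markers of blood cells that can carry Schlafen transcripts were set beside these results. The sum of 15 T cell markers, led by the granzymes Gzma and Gzmb and by Cd3g, lay between 40.6 and 48.8 FPKM in A10-FMT of set 2, against 67.2 to 123 FPKM in A10-FMT of set 1 and 73.1 to 217 FPKM in Con-FMT of set 2. In A10-FMT it thus moved in the same direction as Slfn4 and Slfn2, and 1 of 5 tested T cell markers passed downwards between the sets (30.4% of all genes passed) and 2 of 5 in the interaction (20.8%). In A100-FMT, where Slfn4 was also lower in set 2, all 5 T cell markers were higher there, with a median of 0.28, though none passed. None of the 15 was listed at 0 in all libraries. Its part in the result was not tested. The sum of 20 monocyte, macrophage and neutrophil markers was mostly Cd14, and Cd14 and Itgam alone were tested. In A10-FMT this sum moved the other way, from 59.1 to 66.2 FPKM in set 1 to 72.5 to 79.3 FPKM in set 2. Cd14 differed there by 0.35 ± 0.13 and Itgam by -0.01 ± 0.12, and neither passed. Near the floor, Csf1r (0.02 to 0.07 FPKM) and Ly6c2 (0 to 0.14 FPKM) in set 1 of A10-FMT were at 0 in set 2. Ly6c2 was listed at 0 in 10 libraries and Adgre1 in 17. The B cell and plasma cell sum stayed at 3.29 FPKM or less in all groups, with Cd79b, Derl3 and Jchain as its leading genes. The erythroid sum, mostly Hba-a1, lay between 0.23 and 40.4 FPKM, with its highest value in Con-FMT of set 2, and Hba-a1 passed downwards in the interaction of A10-FMT vs. Con-FMT (-3.0). The sum of the 18 epithelial markers also moved with the sets of A10-FMT, from 20285 to 21735 FPKM in set 1 to 15190 to 17543 FPKM in set 2, without overlap. Of 17 tested, 6 passed downwards and 1 upwards there (30.4% of all genes passed), and 5 downwards and 1 upwards in the interaction (20.8%). The part of these markers in the Slfn2 and Slfn4 differences was not tested.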

How the data were processed

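RNA-seq of small intestine was deposited by the authors as 1 table of FPKM values for 19215 genes, with 24 columns for 23 libraries. The further column is the one that the description of 1 Sa library of set 1 names. Per the paper's methods, total RNA was sequenced on an Illumina HiSeq and read numbers per gene were scaled by length and depth. The build was mm10 in the submitters' processing notes, and the aligner, the counting and the annotation are not given in the sources used here. The deposited FPKM carry no counts, so no count test was run. NCBI Gene numbers of 17725 rows were matched to symbols.

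The 11337 genes whose mean reached 1 FPKM entered the test, on log2(FPKM + 1) with limma 3.58.1 (R 4.3.3), with 1 mean for each of 8 groups, moderated variances with an intensity trend and Benjamini-Hochberg adjustment. A call is an adjusted p under 0.05. The script was checked on simulated data with known changes. Groups came from the labels. Positions were read from GENCODE M21 and promoters from RefSeq. The named genes were the 7 members, the 5 genes most correlated with Slfn4 and the 3 most abundant genes of each of 8 lists, and Adgre1, Csf1r and Ly6c2 were named after their values were seen. The members and lists were chosen with earlier results of these data known. Same-numbered libraries of different groups of a set were checked for pairing by the correlation of their deviations, which lay between -0.352 and 0.319 over 33 pairs, so that the numbers were not taken as pairs. Alternatives were another pseudocount (0.1), no filter, a mean of at least 5 FPKM, quantile and trimmed-mean scaling, only the groups compared, a replicate block, library weights, the column of the description for 1 Sa library, and leaving out each library in turn.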

Additional observations from a re-analysis of the deposited data

Results flagged for a closer look

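The difference between A10-FMT and Con-FMT changed from set 1 to set 2 for Slfn2, by the test of the interaction (limma, adjusted over all 11337 genes), and Slfn4 is given beside it. For Slfn4 the difference changed by -1.67 (log2 scale, set 2 minus set 1), from 0.52 in set 1 to -1.15 in set 2. Its p is not given, because the gene was chosen on high FMT libraries that enter the test. For Slfn2 it changed by -0.57, from 0.17 to -0.39, with adjusted p = 0.0422 and a range of 0.00821 to 0.11. The call of Slfn2 held in 21 of 32 alternative settings, and with no filter it was lost (adjusted p = 0.0698, limma). In A10-FMT, all 3 libraries of set 1 were above all 3 of set 2 for both genes. How many of all genes separated in this way was not counted, so nothing is read from it. Of all genes, 20.8% passed the test of the interaction.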

How the results depend on the processing

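Counts below are calls over 3 contrasts and over the members that passed the filter in each setting, which were 4 with all libraries, 5 where the mean of Slfn8 reached 1 FPKM and 7 with no filter. They include Slfn4, whose calls are a description. The share of all genes called differs between settings and is not given here, so that nothing about the family is read from these counts. For FMT vs. Sa in set 1 (11 calls), there were 7 with the column of the description, 0 with only the groups compared, 0 with library weights, and 2 to 14 on leaving out 1 library, the lowest without Sa replicate 3, the highest without Sa replicate 1, and 7 without Con-FMT replicate 1 or 3. For FMT vs. Sa in set 2 (0 calls), library weights gave 3. Between FMT groups of set 1 (0 calls), the description's column gave 3, the groups alone 1, library weights 2 and leaving out 1 library 0 to 3, with 3 on leaving out either Sa library and 1 without A100-FMT replicate 2. In set 2 (0 calls), the description's column gave 1, library weights 2 and leaving out 1 library 0 to 1, the latter for either Sa library of set 1. Between sets (3 calls), the replicate block gave 1, with Slfn9 of A10-FMT at 0.40 (adjusted p = 0.334, limma) and Slfn4 at -1.28, and leaving out 1 library gave 2 to 4. For the interaction (2 calls), the counts were 4 with the description's column, 1 with a pseudocount of 0.1, 1 with quantile normalization, 4 with the groups alone, 5 with library weights and 0 to 4 on leaving out 1 library. The cause was not tested. The replicate numbers were not taken as pairs, though with so few libraries per group the correlation of deviations cannot exclude pairing. The replicate block changed the call of no other tested member. No called difference of a tested member changed sign. Leaving out a Sa library of set 1 leaves 1, which is then assumed to vary like the other groups.

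The limits are the unknown depth, 2 to 3 libraries per group, and an undefined set code. With all libraries and the filter, Slfn1, Slfn3 and Slfn8 were not tested. Slfn8 entered without Sa replicate 3 of set 1, its lowest library (0.30 FPKM), and then differed by -0.40 between A10-FMT and Con-FMT of set 1. With all libraries and no filter, this difference was -0.40 ± 0.13 (adjusted p = 0.0699, limma) and did not pass.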

Other observations

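Without the filter on low values, Slfn1 changed by -0.55 in the interaction of A10-FMT vs. Con-FMT (adjusted p = 0.0144, limma), with 0.24 to 0.40 FPKM in A10-FMT of set 1 against 0.11 to 0.19 FPKM in set 2, and 0.10 to 0.35 FPKM in Con-FMT of set 1 against 0.41 to 0.95 FPKM in set 2. These values lie below 1 FPKM, where the pseudocount of 1 shrinks every difference. In the same setting, Slfn2 changed by -0.57 in this interaction and did not pass (adjusted p = 0.0698, limma).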
